A study of Homo sapiens with 12 samples.

Results

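The mRNAs that encode the core proteins of the RNA-induced silencing complex (RISC) were examined in an AGO-RIP experiment, in which RNA bound to Argonaute 2 (AGO2) is precipitated and sequenced. The genes are the 4 Argonaute genes AGO1, AGO2, AGO3 and AGO4 and the 3 genes of the GW182 family, TNRC6A, TNRC6B and TNRC6C. They were chosen by family after the AGO over IgG values of AGO2 and TNRC6A had been seen, so that these values are given as a description. All 7 genes were found, each in 1 of the 61782 gene rows of the tables. Of these rows, 6 hold the gene alone, while AGO2 is joined with the overlapping transcript RP11-642A1.2, so that its value cannot be assigned to AGO2 alone.

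The cells were K562, a human erythroleukemia line, here with an inducible C/EBPα-ER transgene according to the study's methods. They had been infected with pLV-miR-143, a lentiviral vector, or with pLV-control, so that both cell populations had received a vector. For infected cells the study's methods name selection with puromycin or FACS sorting, and the K562-C/EBPα-ER line is itself grown in puromycin. Antibodies against AGO2 were used for the AGO precipitates, and unspecific IgG for the mock precipitates. According to the labels, 3 samples belong to each of the groups control_IgG, control_AGO, miR143_IgG and miR143_AGO. The tables give 1 number per gene and group, the average FPKM computed by the authors (sequenced fragments divided by transcript length and library total). Neither the spread between replicates nor a test could therefore be given for any difference.

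Argonaute proteins hold a miRNA and use its seed, the bases near the 5′ end, to find complementary sites, mostly in the 3′ UTR of mRNAs. AGO2 is the member best known for cutting perfectly matched targets, and all family members can silence through partners. The GW182 proteins are these partners. They bind Argonaute through tryptophan-containing repeats and bring in the CCR4-NOT and PAN2-PAN3 complexes, which shorten the poly(A) tail before the cap is removed and the mRNA is degraded.

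In the GENCODE 29 annotation (GRCh38) the longest 3′ UTR of each of the 7 genes exceeded that of the median gene, while the shortest form of TNRC6A (104 bases) and of TNRC6B (119 bases) lay below the median shortest form (258 bases). The longest annotated 3′ UTR measured 10921 bases in AGO1, 11888 in AGO2, 16755 in AGO3 and 4285 in AGO4, and 2420 in TNRC6A, 12567 in TNRC6B and 3990 in TNRC6C. The median over 19146 coding genes was 1102 bases, 0.136% of genes were as long as AGO3 and 24.5% as long as TNRC6A. AGO4 (chr1:35808172-35857890), AGO1 (chr1:35869808-35930528) and AGO3 (chr1:35930718-36072500) lie in a row on the plus strand of chromosome 1, and AGO3 starts 189 bases after the end of AGO1. TNRC6A lies at chr16:24610209-24827632, TNRC6B at chr22:40044817-40335808 and TNRC6C at chr17:77959240-78108835, all on the plus strand, and AGO2 at chr8:140520156-140635619 on the minus strand.

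The precipitates differed in depth and composition. Rows above 0 numbered 8393 in control_IgG and 11453 to 12937 elsewhere. Fragment numbers are unknown. The lowest products of FPKM and transcript length, which fall as depth rises, were 13.7 times higher in control_IgG than in miR143_AGO, and 1.10 and 1.66 times higher in control_AGO and miR143_IgG. Low values of control_IgG are therefore the least certain. The MIR143 row, which checks the labels, was above 0 only in the groups with the miR-143 vector (44781 FPKM for IgG, 118393 FPKM for AGO). Of 14 erythroid marker genes, 9 had a row of their own. Each of the 9 was at 1 FPKM or more in 3 of the groups, and in control_IgG 8 were. Of 7 markers of other blood cells, 1 reached 1 FPKM, in miR143_IgG.

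To show where miR-143 could pair with these transcripts, the longest 3′ UTRs were searched on the transcript strand for the 8mer TCATCTCA and for the 7mers TCATCTC (7mer-m8) and CATCTCA (7mer-A1), each position being counted once. Such a match describes the letters and is not evidence of binding. Matches were found in 5 of the 7 genes, AGO1, AGO2, AGO3, TNRC6A and TNRC6C, and none in AGO4 and TNRC6B. Among all coding genes 22.2% held a match, a share that takes no account of 3′ UTR length. Per kilobase there were 0.168 matches in AGO2, 0.119 in AGO3, 0.413 in TNRC6A and 0.251 in TNRC6C, against 0.175 over all genes. The seed (bases 2 to 8) of the mature miRNA, taken from RefSeq (GRCh38.p14), and the matches in 30-base windows of the GENCODE 29 transcripts are printed in capitals, 5′ to 3′. The 2 matches in AGO2 and the 2 in AGO3, all 7mers, are not printed.
hsa-miR-143-3p: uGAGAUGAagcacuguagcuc
AGO1, chr1:35923453-35923460: gggtagaaaaaTCATCTCAaactagccaaa
AGO1, chr1:35925535-35925542: cttcatttttgTCATCTCAgggtcatggca
AGO1, chr1:35927591-35927598: ctagaaatgggTCATCTCActcctgtcatt
TNRC6A, chr16:24825731-24825737: ccatttgtgccCATCTCAagcctcagcaag
TNRC6C, chr17:78107033-78107039: cagagtgactgCATCTCAttgccattacat

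AGO1 stands out among these. All 3 of its matches are 8mers, at positions 3846, 5928 and 7984 after the stop codon. An 8mer was found in 4.59% of all coding genes, but at least 3 of them in 3 genes, or 0.0157%, of which AGO1 is 1. Its 3′ UTR is also among the longest, a length reached by 0.642% of genes, and per kilobase it held 0.275 matches against 0.175 over all genes. In the shortest annotated 3′ UTRs, 0 of the 7 genes held a match. Which form K562 cells use cannot be read from FPKM values per gene.

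The matches for 14 further miRNA families differed between the genes. In the longest 3′ UTRs the highest density belonged to the miR-30 family in TNRC6A, with 4 matches (TGTTTAC or GTTTACA) in 2420 bases. This was 1.65 per kilobase against 0.156 over all genes. At least 1 match was held by 20.5% of genes, which does not show how rare 4 matches are. The shortest annotated 3′ UTR of TNRC6A (104 bases) held 0. This pair of gene and family was picked after all counts and the AGO over IgG values of TNRC6A had been seen. Whether its matches bear on those values was not tested.
hsa-miR-30a-5p: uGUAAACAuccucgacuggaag
TNRC6A, chr16:24824262-24824268: cccagtgtcaaTGTTTACtcaagggtgttc
TNRC6A, chr16:24824553-24824560: ttgaaccttctTGTTTACAgatttttttgt
TNRC6A, chr16:24824593-24824599: agaaaaaaaaaTGTTTACtcttccatcatt
TNRC6A, chr16:24825359-24825366: tggcttttaacTGTTTACAaatagaatgtg

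TNRC6B had no match for let-7 or miR-143-3p but 5 for miR-19 (TTTGCAC or TTGCACA), of which 2 were 8mers, and 6 for the family of miR-15 and miR-16. AGO3 had 9 matches for the miR-17 family and AGO2 had 6 each for the miR-27 and miR-130 families. At least 1 match was held by 19.2% (miR-19), 24.8% (miR-15/16), 27.4% (miR-17), 26% (miR-27) and 17.3% (miR-130) of all genes. Per kilobase TNRC6B held 0.398 (miR-19) and 0.477 (miR-15/16), against 0.14 and 0.207 over all genes. AGO3 held 0.537 for miR-17, against 0.24. AGO2 held 0.505 each for miR-27 and miR-130, against 0.21 and 0.126. The let-7 seed was matched in all 4 Argonaute genes, with 2 or 3 matches each, and in 0 of the 3 TNRC6 genes, while 15.7% of all genes held it. The shares and the counts in this paragraph take no account of 3′ UTR length, unlike the values per kilobase. Per kilobase AGO1, AGO2, AGO3 and AGO4 held 0.183, 0.252, 0.179 and 0.467 let-7 matches, against 0.109 over all genes. Some families share letters (the 7mer-A1 of miR-101 and of miR-144-3p is the same, and a miR-19 match can overlap a miR-130 match), so that the counts of families cannot be summed.

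**Figure D1:**
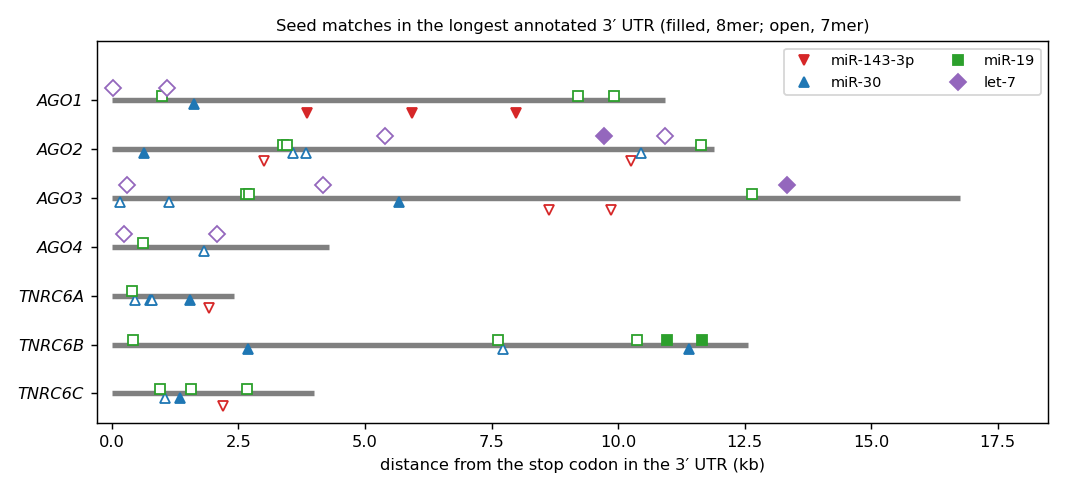
Seed matches of miR-143-3p, miR-30, miR-19 and let-7 (symbols; filled, 8mer; open, 7mer) along the longest annotated 3′ UTR of each gene (grey bars), by distance from the stop codon in kb. The 3 filled miR-143-3p symbols in AGO1 and the 4 miR-30 symbols in the short 3′ UTR of TNRC6A can be seen, as can the lack of let-7 symbols in the TNRC6 genes.

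The levels were first compared among the genes. In the AGO precipitates AGO2 measured 36.6 FPKM (control) and 36.2 FPKM (miR-143), and in the IgG precipitates 1.83 and 4.57 FPKM. For TNRC6A the AGO values were 35.8 and 25.9 FPKM and the IgG values 2.10 and 1.28 FPKM, with control cells named before miR-143 cells here and in the sentences that follow. These genes were therefore the highest and the next highest of the 7 in both AGO precipitates, and in control_AGO they differed by a factor of 1.02. Among coding rows above 0, 9.02% were as high as AGO2 or higher in control_AGO and 7.36% in miR143_AGO.

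TNRC6B, with AGO values of 6.60 and 13.4 FPKM and IgG values of 0.517 and 0.372 FPKM, had the same order of AGO above IgG at a lower level. AGO1 gave 7.72 and 7.56 FPKM with AGO and 3.07 and 7.23 FPKM with IgG, and so was nearly level in 3 of the groups and lower in control_IgG. AGO1 and TNRC6B were neighbours in control_AGO, where they differed by a factor of 1.17.

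The remaining genes had 1 group that stood above the rest. TNRC6C reached 22.4 FPKM in control_IgG, against 0.348 FPKM in the other IgG group and 1.88 and 2.44 FPKM with AGO. AGO4 was listed at 0 in control_IgG and gave 3.13 FPKM in miR143_IgG and 13.1 and 1.45 FPKM with AGO. AGO3 gave 3.51 and 1.72 FPKM with AGO and 0.539 and 10.8 FPKM with IgG. TNRC6C, AGO4 and AGO3 thus exceeded each of their other groups at least 2-fold on the log2(FPKM + 1) scale, in control_IgG, control_AGO and miR143_IgG. Of 8581 coding rows, 12.3%, 5.10% and 13.4% did so in the same groups, and 3.41% in miR143_AGO.

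**Figure D2:**
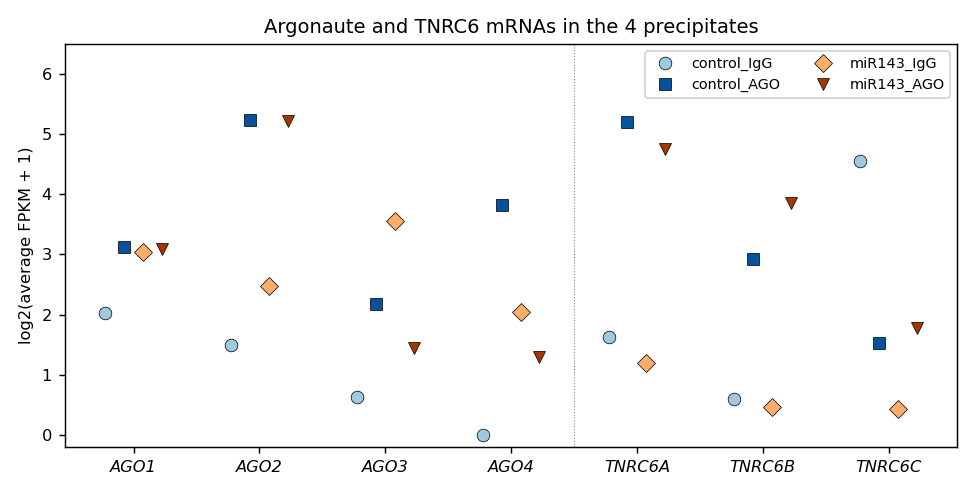
Average FPKM of each gene in the 4 precipitates, as log2(FPKM + 1), with 1 symbol per group and no error because 1 average per group was deposited. Both AGO symbols lie above both IgG symbols for AGO2, TNRC6A and TNRC6B and, by a narrow margin, AGO1, but not for AGO3, AGO4 and TNRC6C.

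The share of a gene within its family also moved. The Argonaute genes summed to 60.9 and 46.9 FPKM with AGO, of which AGO2 made up 60.1% and 77.2%, and to 5.44 and 25.8 FPKM with IgG, of which it made up 33.6% and 17.7%. The TNRC6 genes summed to 44.2 and 41.8 FPKM with AGO, of which TNRC6A made up 80.8% and 62.0%, and to 25.0 and 2.00 FPKM with IgG, of which it made up 8.41% and 63.9%. Such shares also move through the other genes of a family. With AGO, AGO2 itself stayed at 36.6 and 36.2 FPKM while AGO4 went from 13.1 to 1.45 FPKM. In control_IgG, TNRC6C alone reached 22.4 FPKM. The AGO2 row, which also holds RP11-642A1.2, was thus the highest Argonaute row in the AGO precipitates, while in control_IgG AGO1 and in miR143_IgG AGO3 was the highest. Since FPKM in a precipitate depends both on how much of an mRNA the cells hold and on how much of it is bound, and input RNA was not analysed here, the level in the cells and the share bound cannot be told apart.

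Enrichment over the mock precipitate was then described in control cells, as log2 of (FPKM + 1) in AGO over (FPKM + 1) in IgG. Rows past 2-fold, and past 10-fold as a stricter cut-off, were counted. Of the genes, 6 of 7 were at least 2-fold higher in AGO (against 34.5% of 9919 rows), and 3 of 7 at least 10-fold (AGO2, AGO4 and TNRC6A, against 4.38%). AGO4 enters these counts through the pseudocount, since its IgG value was listed at 0. TNRC6C was at least 2-fold lower (1 of 7, against 36.2%). The median log2 ratio of the 7 genes was 2.32, against −0.19 over all rows. Since the genes were picked on this ratio in part, nothing is read from the difference.

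By gene, the log2 ratio in control cells was 3.73 for AGO2 and 3.57 for TNRC6A, plain ratios of 20 and 17. It was 2.32 for TNRC6B, 1.55 for AGO3 and 1.10 for AGO1, plain ratios of 12.8, 6.52 and 2.51. Among coding rows 2.45% were as high as AGO2 or higher, 2.93% as TNRC6A and 31.7% as AGO1, so that AGO1 lay within the bulk. For AGO4 no ratio is given because it was listed at 0 in control_IgG. There the low edge of the FPKM corresponds to 0.103 FPKM for its longest coding transcript (7116 bases). For its shortest transcript (297 bases) the edge is a higher FPKM, so that the listed 0 is not bounded tightly. TNRC6C had a log2 ratio of −3.02, and 5.82% of coding rows were as low or lower.

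In miR-143 cells 4 of 7 genes were past 2-fold with AGO above IgG (against 26.6% of 10643 rows), and 2 of 7 at least 10-fold (TNRC6A and TNRC6B, against 1.60%). AGO3 was the 1 gene of 7 at least 2-fold lower (against 33.5%). The median of the 7 genes was 1.35, against −0.22 over all rows, and without the joined row of AGO2 it was 0.70. TNRC6A had a log2 ratio of 3.56, almost the value in control cells, and 1.06% of coding rows were as high or higher. TNRC6B followed with 3.39 and AGO2 with 2.74, plain ratios of 36.1 and 7.92. The lower value of AGO2 than in control cells goes with an IgG value that was 2.50 times higher, while its AGO values differed by a factor of 1.01.

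The other genes did not keep their ratio. TNRC6C was at 1.35 in miR-143 cells after −3.02 in control cells, and AGO3 at −2.12 after 1.55. AGO1 was at 0.06, and AGO4 at −0.76. The 3 genes AGO2, TNRC6A and TNRC6B were thus at least 2-fold higher in AGO in both cell populations, as were 15.0% of the 8648 rows compared in both, and AGO3 and TNRC6C were past 2-fold in opposite directions, as were 10.2%. For AGO2, TNRC6A and TNRC6B the lower AGO value was 7.92, 12.3 and 12.8 times the higher IgG value, for AGO1 it was 1.05 times. In 24.7% of coding rows both AGO values exceeded both IgG values.

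**Figure D3:**
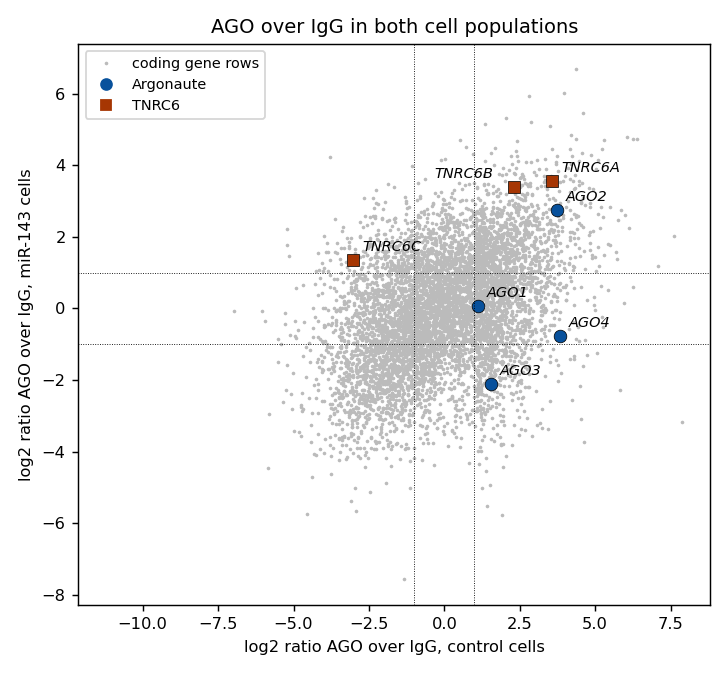
Log2 ratio of AGO over IgG, from log2(FPKM + 1), in control cells (horizontal) and in miR-143 cells (vertical) for coding gene rows (grey points), Argonaute genes (circles) and TNRC6 genes (squares), with dotted lines at 2-fold. AGO2, TNRC6A and TNRC6B lie at the upper right, AGO3 and TNRC6C in opposite corners, and the horizontal position of AGO4, listed at 0 in control_IgG, depends on the pseudocount.

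The next comparison was between both AGO precipitates, in which the study sought targets of miR-143. Of the 7 genes 0 were at least 2-fold higher with miR-143 (against 17.7% of 9798 rows), and 1 of 7 was at least 2-fold lower, AGO4 (against 14.1%). The median log2 ratio of the genes was −0.03, against 0.17 over all rows. AGO2 and AGO1 were the nearest to no difference, with log2 ratios of −0.01 and −0.03, and scaling to the same upper quartile turned both above 0. AGO1 gave 7.72 FPKM without and 7.56 FPKM with the miR-143 vector.

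The extremes of this pair were AGO4 and TNRC6B. AGO4 had the lowest log2 ratio, −2.53, from 13.1 to 1.45 FPKM, and 1.14% of coding rows were as low or lower. TNRC6B had the highest, 0.92, from 6.60 to 13.4 FPKM, and 18.0% of coding rows were as high or higher. On the plain scale this was a ratio of 2.03, so that TNRC6B passes 2-fold with a smaller pseudocount. AGO3 was at −0.73, TNRC6A at −0.45 and TNRC6C at 0.26. Whether seed matches go with these values was not tested, since each group is given as an average and the 3′ UTR form used is unknown.

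The mock precipitates show how far values differ where no AGO2 antibody was used. Of 6 genes past 1 FPKM in either IgG group, 3 were at least 2-fold higher in miR143_IgG (AGO1, AGO3 and AGO4, the last against a listed 0, against 36.2% of 10172 rows) and 1 was lower (TNRC6C, against 26.8%). TNRC6C was also past 10-fold (1 of 6, against 3.16%). TNRC6B was below 1 FPKM in both IgG groups and was left out. The log2 ratio was 2.94 for AGO3, 1.01 for AGO1 and 0.98 for AGO2, so that AGO1 and AGO2 fell on different sides of the threshold with nearly the same value. It was −0.45 for TNRC6A and −4.12 for TNRC6C, and 0.806% of coding rows were as low as TNRC6C or lower.

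The IgG-corrected ratio, AGO over IgG in miR-143 cells relative to AGO over IgG in control cells, joins all 4 groups. Of the 7 genes 2 were at least 2-fold higher (TNRC6B and TNRC6C, against 29.0% of 11914 rows) and 3 at least 2-fold lower (AGO1, AGO3 and AGO4, against 33.5%). TNRC6C passed 10-fold upwards (1 of 7, against 4.29%), and AGO3 and AGO4 passed it downwards (2 of 7, against 6.05%). The value of AGO4 rests on its 0 in control_IgG and moved from −4.58 to −11.47 with a pseudocount of 0.01, so that its size cannot be read. The log2 value was 4.37 for TNRC6C, 1.07 for TNRC6B and 0.00 for TNRC6A, and it was −0.99 for AGO2, −1.04 for AGO1 and −3.68 for AGO3. TNRC6C and AGO3 reach these values mainly through the mock precipitates, since in the AGO pair alone they were at 0.26 and −0.73. The same holds for AGO1 and AGO2, at −0.03 and −0.01 in the AGO pair and 1.01 and 0.98 in the IgG pair. The 4 Argonaute genes were below 0 in each setting that kept them (AGO1 in 9, the others in 8 each), from −1.43 to −0.95 for AGO1 and AGO2. These settings reuse the same averages, and filters leave the value of a gene as it is. The number of settings is therefore no support for the direction. In the main setting 48.3% of all rows were above 0. Of coding rows, 30.8% were as low as AGO1 or lower and 31.8% as low as AGO2 or lower. The sign of TNRC6A depended on the setting (−0.41 to 0.25).

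**Figure D4:**
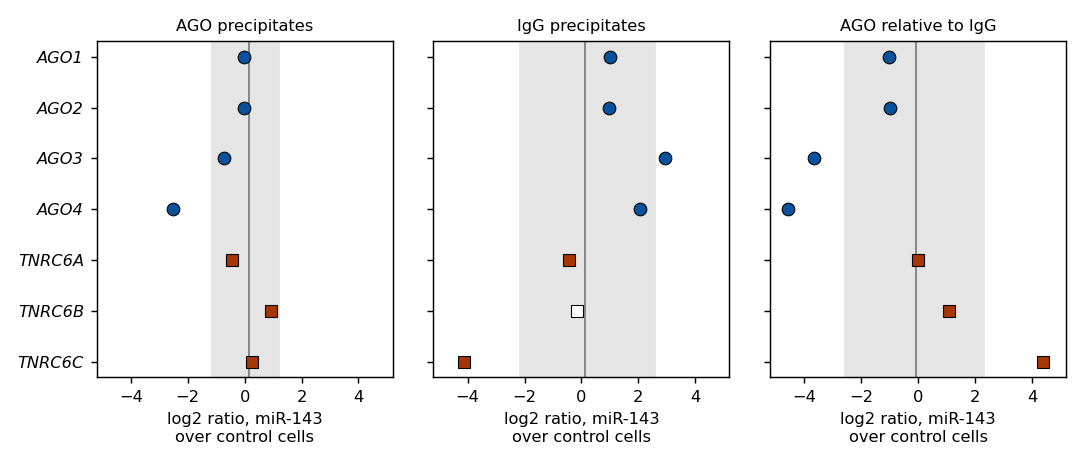
Log2 ratio of miR-143 over control cells for each gene in the AGO precipitates, the IgG precipitates and the AGO precipitates relative to IgG (circles, Argonaute; squares, TNRC6; open, below 1 FPKM in both groups), with the range from percentile 10 to 90 of coding rows in grey and their median as a line. In the AGO precipitates AGO4 alone lies outside the grey range, while the corrected ratio places AGO3, AGO4 and TNRC6C outside it.

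Depth bears on the IgG values in particular. With the longest coding transcript as length, the values of AGO2, AGO3, TNRC6A and TNRC6B in control_IgG were 36.2, 14.4, 24.1 and 12.9 times the low edge of that group, and in the AGO groups 628 to 9825 times the edge. With the shortest of their transcripts as length, the same control_IgG values were at 0.768, 0.401, 0.789 and 0.292 times the edge and thus below it, so that they are not shown to lie clear of the floor. The value of TNRC6C in control_IgG was 296 times the edge with the longest and 16.6 times with the shortest of its transcripts. In miR143_IgG, with the shortest transcript as length, TNRC6A, TNRC6B and TNRC6C were at 3.94, 1.73 and 2.12 times the edge. Their ratios in miR-143 cells thus divide by values that may lie near the floor. The Argonaute genes were at 10.4 to 229 times the edge there. Which transcripts the fragments came from was not given.

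Other genes had profiles like those of the Argonaute and TNRC6 genes. Likeness was measured as the Euclidean distance of log2(FPKM + 1) over the 4 groups among 16022 coding rows, and it carries no statement on function. The nearest to TNRC6C was MIOS (distance 0.258), with 22.2 and 0.438 FPKM for IgG and 1.60 and 2.02 FPKM for AGO, followed by PRICKLE3 and CRLS1. AGO3 was nearest to NCS1, a calcium sensor, PDP2 and C5orf28, which were also highest in miR143_IgG (12.3 to 12.6 FPKM). AGO2 was nearest to CENPV, DPP9 and TAOK2, TNRC6A to SUOX, ZBTB4 and E2F1, and TNRC6B to TAOK1, SLC30A7 and ZER1. AGO1 was nearest to FAM57A, WDR82 and MDM2, and AGO4 to SELENBP1, BRF1 and RTCB, each of the latter 3 also listed at 0 in control_IgG.

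The proteins that work around Argonaute were followed through lists of genes. Of 4 genes of the PIWI branch of the family, 2 had a row of their own and neither reached 1 FPKM in a group compared. Of 16 genes of miRNA processing and export, 14 had a row of their own. In control cells 3 of 14 were at least 2-fold higher in AGO and 5 lower (median −0.26), and in miR-143 cells 2 of 13 were higher and 6 lower (median −0.03). XPO5, the exporter of miRNA precursors, was the gene of the list at least 4-fold higher in both populations, with 167 and 86.0 FPKM for AGO and 9.33 and 11.2 FPKM for IgG. DGCR8, the partner of the nuclear processing enzyme, RAN, the GTPase of nuclear transport, and PRKRA, a partner of Dicer, were at least 4-fold lower in both, with log2 ratios between −2.26 and −2.65.

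Of 11 chaperones that help load Argonaute, 0 were at least 2-fold higher in AGO in either population, and 6 were lower in control cells (median −1.38) and 5 in miR-143 cells (median −0.94). HSP90AA1, a form of the HSP90 chaperone, gave 23.6 and 45.9 FPKM for IgG and 2.40 and 4.79 FPKM for AGO. HSPA4 gave 29.8 and 35.2 FPKM for IgG and 1.21 and 3.49 FPKM for AGO. The background for these counts is the share of rows given above, 34.5% higher and 36.2% lower in control cells and 26.6% and 33.5% in miR-143 cells.

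Among 31 partners and regulators of Argonaute, 3 of 17 compared were at least 2-fold higher and 8 lower in control cells (median −0.64), and 4 of 19 higher and 6 lower in miR-143 cells (median −0.65). ANKRD52, a subunit of the phosphatase complex that acts on Argonaute, had log2 ratios of 2.52 and 2.86. GIGYF1, a translational repressor, gave 74.7 and 53.0 FPKM for AGO and 2.15 and 10.1 FPKM for IgG. Both were thus higher in AGO in each population.

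The deadenylation and decapping factors, which act downstream of the TNRC6 proteins, were mixed. In control cells 10 of 23 were at least 2-fold higher in AGO and 5 lower (median 0.77), and in miR-143 cells 7 were higher and 8 lower (median 0.10). BTG2, which stimulates deadenylation, gave 289 and 274 FPKM for AGO and 11.1 and 5.31 FPKM for IgG. CNOT7, a catalytic subunit of CCR4-NOT, had log2 ratios of −2.75 and −2.46. Between the AGO precipitates, 4 of 23 genes of this list were at least 2-fold higher with miR-143 and 0 lower (median 0.12), against 2 higher and 3 lower of 14 for miRNA processing, 2 and 1 of 10 for the chaperones and 5 and 1 of 17 for the partners. Over all rows of this pair 17.7% were higher and 14.1% lower, so that the 4 of 23 lie near the background.

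**Figure D5:**
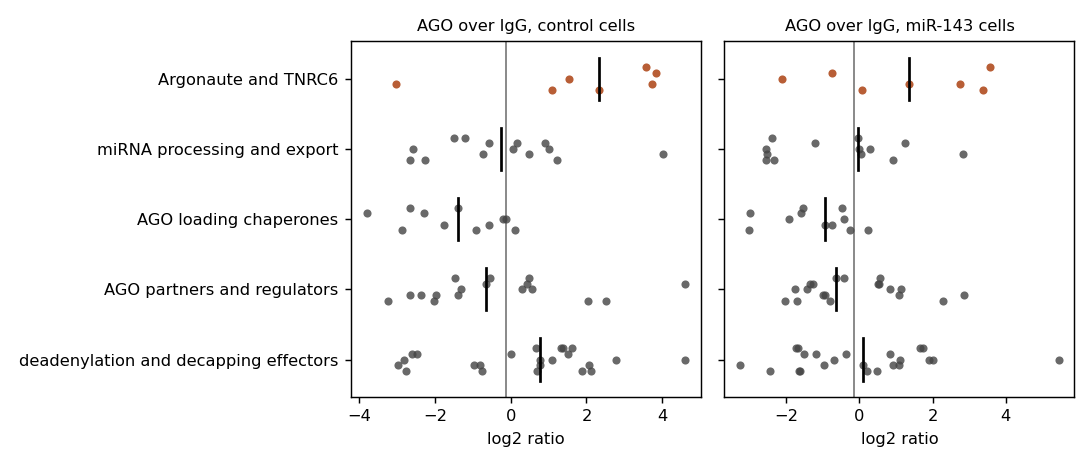
AGO over IgG (log2 ratio, horizontal) for control (left) and miR-143 (right) cells, shown for the Argonaute and TNRC6 genes and for the genes of 4 lists with a row of their own (points), with the median of each list as a black bar and the median of all coding rows as a grey line. The Argonaute and TNRC6 genes, chosen in part on these values, lie on both sides of the grey line, and the chaperones lie mostly left of the grey line.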

How the data were processed

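Per the labels, rRNA was removed from precipitated RNA (Ribo-Zero Gold) and libraries were sequenced as paired ends, while the study's methods name a TruSeq RNA kit. The submitters' processing notes name TopHat, Cufflinks and hg38. Versions and annotation were not given in the sources used here. The authors deposited 4 tables, 1 per group, of FPKM averaged over the group. No values of single samples and no counts were analysed here, so that neither a test nor an interval could be given.

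Rows were joined by their order and members found by exact name. Groups came from the sample titles. Ratios are log2 of (FPKM + 1) over (FPKM + 1), which understates changes of low genes, over rows of at least 1 FPKM in a group compared. The low edge is the 10th lowest product above 0 of FPKM and length among genes with 1 transcript in GENCODE 29. Of 59642 rows of 1 name, 64.8% were found in GENCODE by current or older symbol. Genes named are the 7 members, list genes at least 4-fold higher or lower in AGO in both populations, and the 3 nearest profiles of each member. Joined or repeated names were left out of the lists. The members, lists and sites shown were chosen with earlier results of these data known. Python 3.11.15, pandas 2.3.3 and numpy 2.4.6 were used. The alternatives are pseudocounts of 0.1 and 0.01, scalings, filters, and leaving out joined rows.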

Additional observations from a re-analysis of the deposited data

Results flagged for a closer look

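AGO3 and TNRC6C had ratios of AGO over IgG past 2-fold in opposite directions in the 2 cell populations. AGO3 had a log2 ratio of 1.55 with pLV-control and −2.12 with pLV-miR-143, with a range over all settings from 1.55 to 2.68 and from −2.65 to −1.73. TNRC6C had −3.02 and 1.35, with ranges from −3.56 to −2.47 and from 1.35 to 2.77. Each reversal joins 1 high IgG value, 10.8 FPKM of AGO3 in miR143_IgG and 22.4 FPKM of TNRC6C in control_IgG, with 1 low one. The low values were 0.539 FPKM of AGO3 in control_IgG and 0.348 FPKM of TNRC6C in miR143_IgG. With the shortest transcript as length, these low values were 0.401 and 2.12 times the low edge of their groups. The difference between the populations was not tested, since there is 1 average per group, and 10.2% of all rows compared in both populations had the same kind of change of direction.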

How the results depend on the processing

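No paired analysis was possible because each group is given as 1 average without replicate numbers. For the same reason no replicate could be left out. None of the 34 log2 ratios of single genes past the filter changed sign once it was past 2-fold, which is no sign of stability. In a ratio of 2 groups a pseudocount cannot change the sign, and a filter leaves the value of a gene as it is. Under the 3 scalings 34 of 34 stayed within 1.5-fold, while a pseudocount of 0.1 moved 12 of them further and 0.01 moved 13. Smaller pseudocounts raised the median of the genes for AGO over IgG from 2.32 to 3.44 (0.1) and 3.65 (0.01) without miR-143 and from 1.35 to 2.50 and 2.77 with it. At a mean of at least 5 FPKM, which left 5 genes, not the same ones in each comparison, these medians were 3.57 and 2.74. The corrected ratio then had a median of 0.00 (−0.99 otherwise) and 3 genes past 2-fold (5 otherwise). A gene can pass this filter through 1 high group, as AGO4 did without miR-143 (13.1 FPKM with AGO, 0 with IgG). Nothing is therefore read from the higher medians. Without the joined AGO2 row the median with miR-143 was 0.70. In the AGO pair the count past 2-fold rose from 1 to 2 with a pseudocount of 0.1 or the same upper quartile, and to 3 with 0.01. Equal medians of the groups shifted the log2 ratio of the median row by 0.55 for AGO over IgG without miR-143, by −0.18 in the AGO pair and by −0.33 in the corrected ratio, where TNRC6B then fell short of 2-fold (0.79). Among rows past 2-fold without miR-143, 60.1% were then higher in AGO instead of 48.8%. With the same sum of coding rows, 56.9% were higher with miR-143 instead of 44.2%. AGO1 and AGO2 in the AGO pair ranged from −0.22 to 0.07 and from −0.23 to 0.09, so that their direction depends on the scaling. Of the 21 nearest profiles, 18 were also named with a pseudocount of 0.1.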
